A study of Mus musculus with 17 samples.

Results

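In mouse embryonic stem cells with intact Sirt6 (WT), 591 of 10304 regions bound by Sirt6 were clusters of 3 or more separate peaks that carried no call for acetylated histone H3. They were found by joining the 14510 peaks of the WT Sirt6 list wherever the gap between neighbours was at most 1000 bp. Of the joined regions, 758 held at least 3 peaks, and 167 of these were left out because 1 bp or more overlapped a peak of at least one of 8 acetylation lists. The 591 clustered regions hold 1967 peaks, which is 13.6% of all WT Sirt6 peaks, and cover 1152800 bp in total. None lay on chromosome Y or an unplaced contig, where the list has 64 peaks. The regions were chosen by the positions of Sirt6 peaks and by their overlap with acetylation peaks, so their Sirt6 values are given as a description only.

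Sirt6 is a NAD-dependent deacetylase that binds chromatin and removes acetyl groups from histone H3 at lysine 9 (H3K9ac) and lysine 56 (H3K56ac), marks found at active promoters and enhancers. In embryonic stem cells it is known for restraining the transcription of developmental and metabolic genes. The Tet enzymes oxidise 5-methylcytosine to 5-hydroxymethylcytosine, which bisulfite turns into cytosine methylenesulfonate (CMS), and CMS-IP enriches DNA fragments that carry it with an antiserum.

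All libraries came from cells of the 129 strain, either WT or lacking Sirt6 (KO), with 1 library in each of 17 groups. Sirt6 was profiled by chromatin immunoprecipitation with sequencing (ChIP-seq) in untreated cells, with 1 WT library, 2 KO libraries made with a lower and a higher amount of the same antibody, and a whole-cell extract control for each genotype. H3K9ac and H3K56ac were profiled in WT and KO cells, each untreated or given retinoic acid (RA) for 2 days without LIF and harvested the day after its removal. CMS-IP was run on untreated WT and KO cells, each with an input library. The ChIP-seq cells were grown on irradiated feeder fibroblasts that were removed by plating. The labels do not say how many cell lines or cultures stand behind a genotype, so differences between genotypes cannot be told apart from differences between lines or single libraries. No comparison between conditions has a replicate, and the 95% intervals below reflect only the counting of regions, windows or reads.

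The WT Sirt6 library is shallow, at 2008232 tags after filtering against 6251712 in its control. The KO Sirt6 libraries held 40006795 and 48956556 tags, against 5113859 in their control, and gave 0 peaks each. The regions described here were thus called in WT cells only. WT and KO libraries differ in depth and in control, so absence of the protein cannot be told apart from these differences. The acetylation lists held 2063 to 3593 peaks from 5782181 to 10250030 tags, and were called with no control library. A region without an acetylation call is one where these lists hold no peak, and it is not shown to lack acetylation. Coordinates are of build mm9. Genes and sequences at the regions were not analysed here, since no annotation or genome of that build was used.

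Most clusters were small. Of the 591, 445 (75.3%) held 3 peaks, 108 (18.3%) held 4, 29 held 5, 8 held 6 and 1 held 7. The median span, from the start of the first peak to the end of the last, was 1800 bp, with quartiles of 1457.5 and 2259.5 bp and a range of 810 to 6332 bp. Peaks covered a median of 71.4% of that span. In all, 53 regions were longer than 3000 bp and 8 were longer than 4000 bp. The peaks inside clusters were somewhat shorter than lone ones, with a median length of 337 bp against 397 bp for the 6000 isolated peaks without an acetylation call.

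Neighbouring peaks within a cluster lay close together. The 1376 gaps inside the regions had a median of 196 bp, with quartiles of 93 and 357.25 bp and a range of 26 to 985 bp. Under 200 bp lay 693 of them (50.4%), and 180 (13.1%) were over 500 bp. Summits of neighbouring peaks were a median of 592 bp apart, with quartiles of 453.75 and 797.5 bp. The fragment length that the peak caller estimated for this library was 220 bp. The gap that joins peaks was reached by few clusters: in 437 regions (73.9%) the largest gap was at most 500 bp, and 21 regions had a gap over 900 bp. Over all neighbouring Sirt6 peaks the number of gaps per 100 bp dropped from 1092 at 0 to 100 bp to 352 at 401 to 500 bp. It was 49 just inside the joining limit, at 901 to 1000 bp, and 30 just outside it, at 1001 to 1100 bp. Farther out the counts were 11 at 1901 to 2000 bp and 6 at 2901 to 3000 bp.

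**Figure D1:**
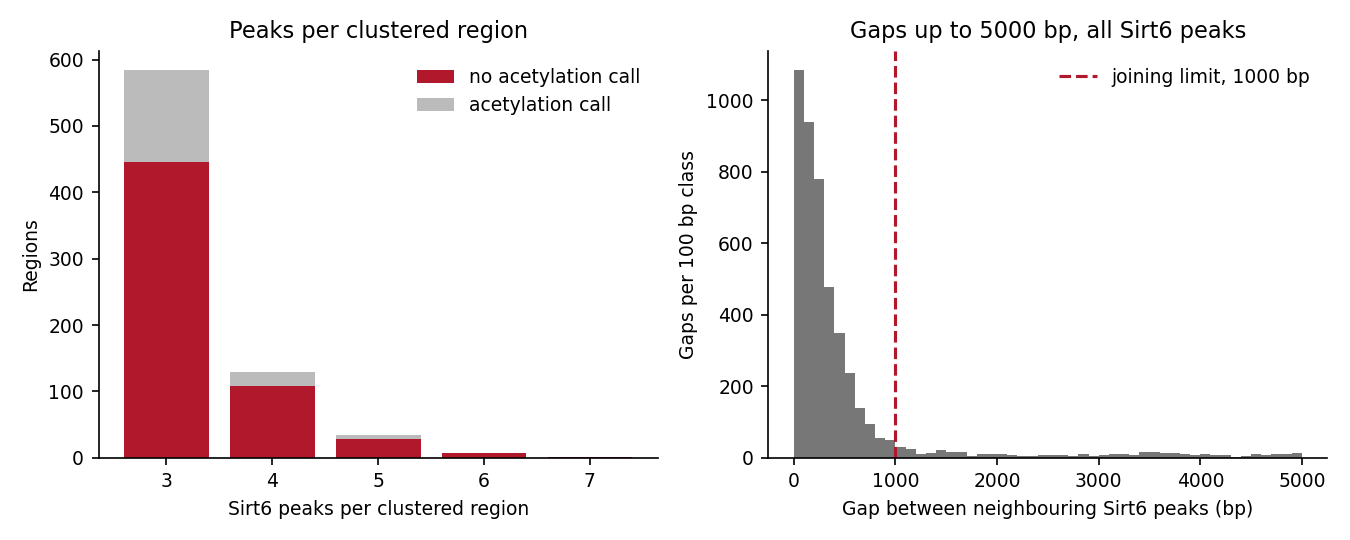
Left, number of joined Sirt6 regions by their number of peaks, with red for regions without and grey for regions with an acetylation call. Right, number of gaps between neighbouring peaks of the WT Sirt6 list per 100 bp class, up to 5000 bp. The dashed line is the joining limit of 1000 bp, and the counts level off beyond it.

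The region with the most peaks was chr19:5799086-5803489, with 7 peaks in 4404 bp. Its fold enrichments, which are the authors' ratio of Sirt6 signal to local background at each summit, were 6.23, 7.28, 6.23, 9.13, 5.48, 6.31 and 4.85 from left to right. No single peak dominated it. The longest region was chr17:34253648-34259979, with 6 peaks over 6332 bp, a highest fold of 11.3 and a largest gap of 880 bp. By contrast, chr8:87184512-87189570 covered 5059 bp with only 4 peaks, which filled 4563 bp of it and reached a fold of 18.2. At chr4:116227940-116231304, 6 peaks ranged in fold from 5.30 to 16.5. This last region lay 6510 bp from the nearest acetylation peak, whereas the region on chromosome 19 was 188976 bp from one. None of the 10 clusters with the most peaks was among the 10 with the highest fold. Lists this short, taken from so many clusters, can easily share none by chance, so no conclusion is drawn from it. Over all clusters, the number of peaks and the highest fold had a Spearman rho of 0.118.

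**Figure D2:**
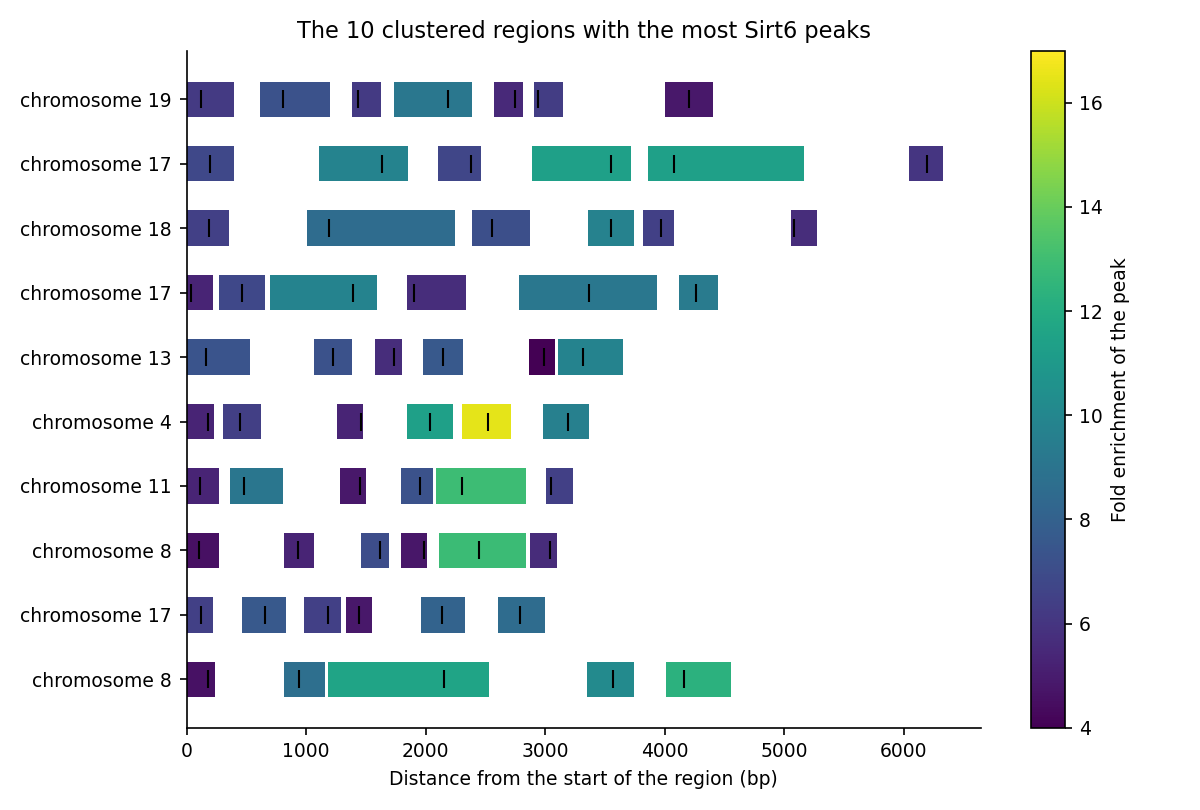
Layout of the 10 clustered regions with the most Sirt6 peaks, each drawn from its start along an axis in bp. Bars are peaks coloured by fold enrichment and ticks are their summits. The rows on chromosomes 4, 8 and 11 hold a peak above 12, while the other rows reach at most 11.3.

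The highest fold of any peak in these regions was at chr14:120876264-120878517. Its 3 peaks had folds of 8.15, 33.3 and 18.4, and pileups, meaning fragments stacked at the summit, of 15, 49 and 27. The next was chr8:123191027-123193464, with a highest fold of 25.1 and a lowest of 5.30. It was followed by chr6:115756801-115758814, also at 25.1, and chr11:106077317-106078862, at 22.6, where the last of the 3 peaks was the highest. The highest peak lay in the middle in the region on chromosome 14 and at an edge in the other three. Among all 591 regions, 9 had a highest fold over 20, 63 had one over 15 and 85 had none reaching 8.

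Peaks within a cluster differed in fold. The single peaks in clusters had a median fold of 7.31 (quartiles 6.05 and 9.70), below the 8.08 of isolated peaks and the 7.57 of peaks in the 2040 pairs without an acetylation call. The highest peak of each cluster had a median fold of 10.5 (quartiles 8.84 and 12.9, range 5.30 to 33.3), against 9.70 in pairs and 8.08 in isolated peaks. A highest value is drawn from more peaks in a cluster, so these medians are not like for like. The lowest peak of a cluster had a median fold of 5.66. Within a region the highest fold was a median of 1.77 times the lowest (quartiles 1.43 and 2.14, largest 4.74), and at least 2 times in 213 regions (36.0%). Longer regions tended to have the higher top fold, with a Spearman rho of 0.373 between span and top fold over the 591 regions, while rho with the number of peaks was 0.118. All of these points share 1 library.

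Many of these peaks rest on few fragments. The median pileup was 9 over the 1967 peaks, and 56.7% had a pileup under 10, against 48.9% of isolated peaks. A −log10 q of at least 10, where q is the authors' adjusted p of the peak call, was reached by 36.6% of the peaks in clusters and by 42.8% of isolated peaks. In 128 regions (21.7%) no peak reached it. When both Sirt6 and acetylation peaks were held to that limit, joining gave 51 regions of 3 or more peaks without an acetylation call.

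Among regions of 3 peaks, the middle place held the highest peak more often than either single edge place, though less often than both edges together. In the 445 regions of 3 peaks it was the middle one in 201 (45.2%, Wilson interval 40.6 to 49.8) and the left or right one in 122 each (27.4%, 23.5 to 31.7). Ties, of which there were 20, went to the leftmost. Median folds were 7.13, 8.33 and 7.28 from left to right. In the 108 regions of 4 peaks the highest was in place 1 to 4 in 14, 40, 32 and 22 regions, or 13.0%, 37.0%, 29.6% and 20.4%. Left and right follow the chromosome's coordinates and not the direction of any gene. In the 29 regions of 5 peaks the counts from left to right were 5, 6, 7, 5 and 6.

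**Figure D3:**
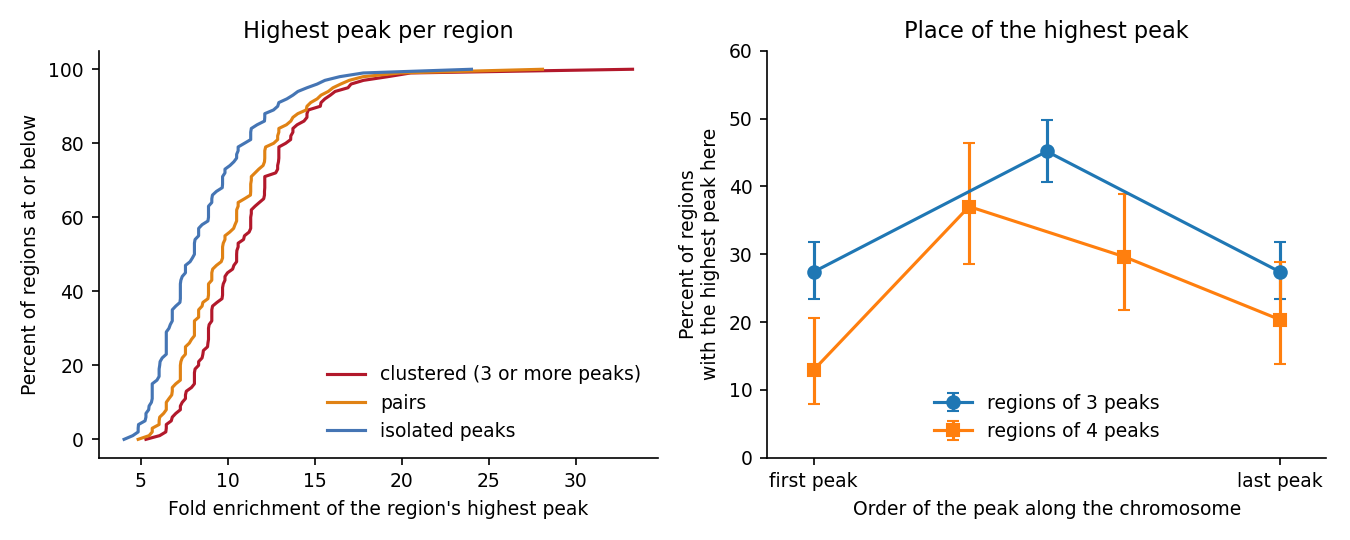
Left, cumulative percent of regions by the fold enrichment of their highest peak, for clustered regions, pairs and isolated peaks without an acetylation call, with medians of 10.5, 9.70 and 8.08. Right, percent of regions of 3 or 4 peaks whose highest peak is at each place along the chromosome, with 95% Wilson intervals, where each inner place is above each outer one.

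Clustered regions were unevenly spread over the chromosomes. Chromosome 11 had the most, 57 regions or 4.80 per 10 Mb (exact Poisson interval 3.63 to 6.21), against 2.30 per 10 Mb (2.11 to 2.49) over chromosomes 1 to 19 and X. Chromosome 17 had 41 (4.45 per 10 Mb), chromosome 19 had 23 (3.96), chromosome 8 had 48 (3.74) and chromosome 7 had 49 (3.29). At the low end, chromosome X had 7 (0.429 per 10 Mb, 0.172 to 0.884). Chromosome 18 had 9 (1.03), chromosome 13 had 13 (1.11) and chromosome 16 had 11 (1.16). Densities use the span between the outermost peaks of any deposited list as the length of a chromosome.

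The spread of clusters followed that of Sirt6 peaks as a whole. Chromosome 11 had 10.4 Sirt6 peaks per Mb and chromosome X had 1.57, against 5.61 overall. Over the 20 chromosomes, peaks per Mb and clusters per 10 Mb had a Pearson r of 0.944 and a Spearman rho of 0.907. Both come from the same peak list, and the more peaks a stretch holds the more often neighbours fall within reach, so this is a description. As a share of all joined Sirt6 regions on a chromosome, the clusters varied less, from 3.18% (1.87 to 5.36) on chromosome 13 and 3.24% (1.58 to 6.54) on X to 7.72% (5.74 to 10.3) on chromosome 17 and 7.82% (5.95 to 10.2) on chromosome 8. The share over all chromosomes was 5.74%.

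**Figure D4:**
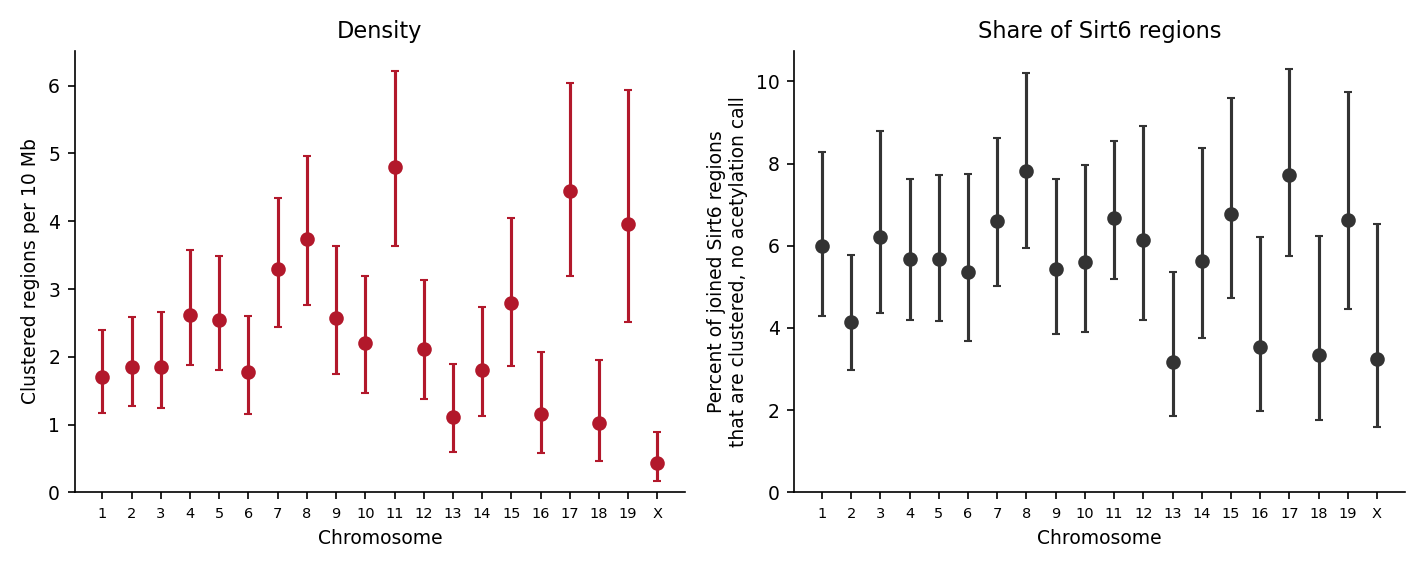
Left, clustered Sirt6 regions without an acetylation call per 10 Mb of each chromosome, with 95% exact Poisson intervals. Right, their percent among all joined Sirt6 regions of the chromosome, with 95% Wilson intervals. Chromosome 11 is highest on the left at 4.80 and X lowest at 0.429. On the right the shares run from 3.18% on chromosome 13 to 7.82% on chromosome 8. The intervals of these chromosomes do not overlap. They were picked as the lowest and highest of all chromosomes, so no conclusion is drawn from it.

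Along the chromosomes, most clusters had no other cluster within 100000 bp. How this compares with regions placed at random was not tested. The median distance to the nearest other cluster was 645 kb, 71 regions (12.0%) had one within 100000 bp, and 10 had one within 10000 bp. The closest neighbours, named after their values were seen, were chr7:152124093-152125647 and chr7:152127111-152128852, which lay 1463 bp apart and so just failed to be joined. The stretch of 1 Mb with the most was on chromosome 11 from 120000001 to 121000000, with 5 clusters among 30 joined Sirt6 regions. On chromosome 8 the stretch from 87000001 to 88000000 held 4, among them chr8:87184512-87189570, chr8:87500111-87504665 and chr8:87558858-87562857, which are also among the 10 longest.

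Chromosome 8 also had the higher folds, a comparison chosen after its values were seen. Its 48 clustered regions had a median top fold of 12.6, against 10.5 over the 543 regions elsewhere, where the medians of single chromosomes ran from 8.89 to 11.4. A top fold over 15 was reached by 12 of the 48 (25%) and by 51 of the 543 (9.39%). Isolated peaks without an acetylation call had a median fold of 9.70 on chromosome 8 and 8.06 elsewhere, with single chromosomes from 6.47 to 8.33. The higher medians were thus seen in both classes. In the CMS-IP experiment, the input reads in the windows higher in KO on chromosome 8 stood at 0.781 (0.735 to 0.830) in KO relative to WT, against 1.01 (0.999 to 1.02) in such windows on the other chromosomes. The input ratio was thus lower on that chromosome than over the others pooled, and it was not computed for other single chromosomes. The part of DNA copy number in the folds or in the input ratio was not tested.

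Acetylation calls were a little more common in clusters than in smaller groups before the filter was applied. An overlap was found for 167 of 758 clustered regions (22.0%, 19.2 to 25.1), 422 of 2462 pairs (17.1%, 15.7 to 18.7) and 1084 of 7084 isolated peaks (15.3%, 14.5 to 16.2). A longer region has more bases in which to meet a peak, and this was not adjusted for. The share was 23.8% in regions of 3 peaks, 16.9% in those of 4 and 17.1% in those of 5. All 9 regions of 6 or 7 peaks were without a call. The list that removed most was that of H3K9ac in untreated KO cells, the longest of the 8 at 3593 peaks, which overlapped 122 of the 758 (16.1%). H3K56ac in the same cells overlapped 42, H3K56ac in untreated WT cells 20, and H3K9ac in RA-treated KO cells 16. The list of H3K9ac in untreated WT cells, the condition in which Sirt6 was mapped, overlapped 3. Overlaps list by list were counted for clustered regions only. They are therefore not shown to differ from those of other Sirt6 regions. Of the 167 regions left out, 139 met only 1 list and 3 met all 8.

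The retained clusters lay about as far from acetylation peaks as the smaller Sirt6 groups without a call. The median distance to the nearest peak of any of the 8 lists was 157 kb, against 151 kb for pairs and 147 kb for isolated Sirt6 peaks. Regions that overlap an acetylation peak are absent from all 3 classes by the rule. Within 10000 bp lay a peak for 19 clusters (3.21%) and for 235 isolated peaks (3.92%). At the edge of the rule, the retained region chr1:188572170-188573147 lay 188 bp from an acetylation peak and chr7:75095540-75097508 lay 458 bp from one. On the other side, chr7:140828837-140830123 was left out for 7 bp of overlap with 1 list, and chr3:123210564-123211778 for 72 bp. Their highest folds were 8.42 and 14.6 for the retained regions and 8.89 and 9.84 for the others.

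CMS-IP, which played no role in choosing the regions, had changed windows listed at a small share of them. The authors' deposited table lists 500 bp windows whose IP reads differed between KO and WT at their p under 0.001, 2218 higher in KO (0.0719% of the windows tested) and 1562 lower (0.0506%). The number of windows tested, 3084167, is not in the table and was implied by its adjusted p, which equals p times that number with a ceiling of 1. The table holds no other windows, so it gives no level of 5-hydroxymethylcytosine elsewhere. A window higher in KO overlapped 2 of the 591 clustered regions (0.338%, against 0.505% of all joined Sirt6 regions). One lay within 1000 bp of 6 clustered regions (1.02%, 0.466 to 2.20), where the value over all joined regions was 1.55%. The share was 1.37% (0.951 to 1.98) for pairs and 1.88% (1.57 to 2.26) for isolated peaks. Clusters were thus 0.868 percentage points lower than isolated peaks, with a Newcombe interval from −1.53 to 0.355 that includes no difference. Within 10000 bp the share was 5.25% (3.72 to 7.35), the value over all joined regions was 4.96%, and the difference from isolated peaks was −0.305 points (−1.95 to 1.87).

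Measured from the summit of the highest peak instead of the region's edge, the clusters differed from isolated peaks. No clustered region, 0 of 591, had a window higher in KO within 1000 bp of that summit, which allows a share of up to 0.508% by 3 counts, or 0.646% by the Wilson upper limit. The same was true of 18 of 2040 pairs (0.882%, 0.559 to 1.39) and 104 of 6000 isolated peaks (1.73%, 1.43 to 2.10), and 1.30% of all joined regions had such a window. The difference between clusters and isolated peaks was −1.73 points (−2.10 to −1.02), and that between pairs and isolated peaks was −0.851 points (−1.34 to −0.261). Over the covered span of all chromosomes there were 0.862 windows higher in KO per Mb, and the 0 of the clusters is not shown to lie under that density. The summit measure lets long and short regions reach equally far. It was listed among the alternatives, but was given this place after its values were seen, and other summit distances and subsets of isolated peaks were also looked at.

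Among isolated peaks and among pairs, the same share was lower where the fold of the highest peak was higher, though with overlapping intervals. Isolated peaks were split at the median top fold of clusters. At or above it, 16 of 1480 (1.08%, 0.667 to 1.75) had a window higher in KO within 1000 bp of the summit. Below it, 88 of 4520 did (1.95%, 1.58 to 2.39). Against the higher isolated peaks the difference of the clusters was −1.08 points (−1.75 to −0.314). Pairs whose top fold reached that median had such a window in 3 of 854 cases (0.351%, 0.120 to 1.03). Below it the count was 15 of 1186 (1.26%, 0.768 to 2.08). Clustered regions with an acetylation call had one in 1 of 167 cases (0.599%, 0.106 to 3.31). The intervals of these higher pairs and of the 167 overlap that of the clusters, 0 to 0.646%. A low share is thus not shown to be particular to the clusters. Within 5000 bp of the summit, 17 clusters and 224 isolated peaks had such a window, and the difference was −0.857 points (−2.04 to 0.884), an interval that includes 0. The difference from isolated peaks was therefore seen close to the summit.

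Counting windows by distance showed the same at finer scale, with distance classes chosen after the data were seen. Around cluster summits there were 0 windows higher in KO within 1 kb, and 2.54 per Mb (0.523 to 7.42) from 1 to 2 kb. The count of 0 allows up to 2.54 per Mb searched by 3 counts, or 3.12 by the exact Poisson upper limit. The density was 5.08 per Mb (3.01 to 8.02) from 2 to 5 kb, 3.21 (1.94 to 5.02) from 5 to 10 kb and 2.37 (1.57 to 3.42) from 10 to 20 kb. Around isolated peaks it was highest at the summit, at 9.08 per Mb (7.46 to 10.96) within 1 kb, and was 4.50 (3.38 to 5.87) from 1 to 2 kb and 3.22 (2.66 to 3.86) from 2 to 5 kb. Pairs had 4.41 per Mb (2.61 to 6.97) within 1 kb and 6.86 (4.56 to 9.92) from 1 to 2 kb. Within 1 kb the interval of isolated peaks lay above those of clusters and pairs, which overlapped each other. In every distance class beyond 1 kb the intervals of clusters, pairs and isolated peaks overlapped. Over the covered span of all chromosomes there were 0.862 such windows per Mb. That value is within the interval of the clusters within 1 kb and below their intervals from 2 to 20 kb. It is an average and no local background, since the windows were unevenly spread. Chromosomes 6, 11 and 10 held 335, 265 and 216 of the 2218 higher windows, and chromosome 11 also had the most clusters. Distances here run to the middle of a window, and windows often adjoin each other, so the intervals are too narrow.

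**Figure D5:**
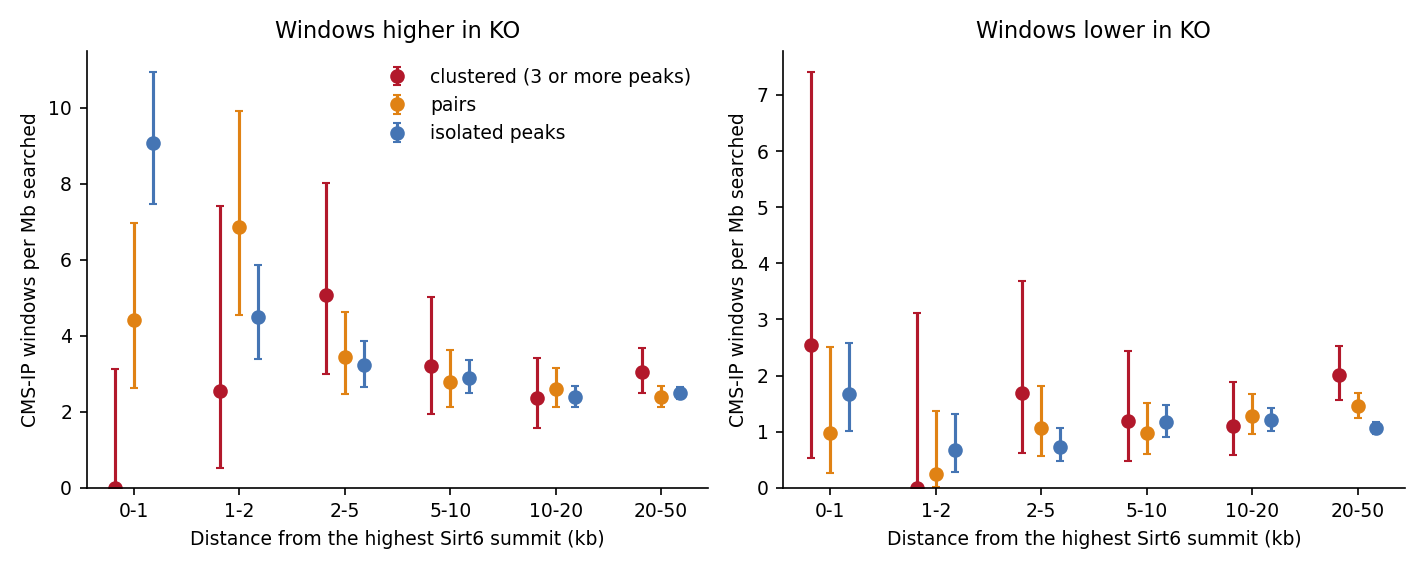
CMS-IP windows higher (left) or lower (right) in KO per Mb searched, by distance in kb from the summit of the highest Sirt6 peak, for clustered regions, pairs and isolated peaks without an acetylation call. Bars are 95% exact Poisson intervals. On the left, within 1 kb, clustered regions are at 0, pairs at 4.41 and isolated peaks at 9.08.

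For windows lower in KO, the intervals of the difference from isolated peaks included 0. A lower window overlapped 2 of 591 clusters (0.338%, 0.0929 to 1.23, against 0.233% of all joined regions). The same 2 clusters were those with one within 1000 bp of the edge or of the highest summit, where the values over all joined regions were 0.330% and 0.311%. The share for isolated peaks within 1000 bp of the edge was 15 of 6000 (0.25%), and the difference was 0.0884 points (−0.206 to 0.981). Within 10000 bp the counts were 13 clusters (2.20%, 1.29 to 3.73) and 88 isolated peaks (1.47%, 1.19 to 1.80), with a value of 1.58% over all joined regions and a difference of 0.733 points (−0.237 to 2.28). Farther away, from 20 to 50 kb of the summit, there were 2.00 lower windows per Mb (1.56 to 2.53) around clusters and 1.06 (0.957 to 1.17) around isolated peaks. Pairs had 1.45 (1.25 to 1.68), an interval that overlaps that of the clusters and lies above that of isolated peaks. A higher density there is thus not shown to be particular to the clusters. The 71 windows behind the value of the clusters lay around 32 of them. Over the covered span of all chromosomes there were 0.607 lower windows per Mb. This too is an average and no local background, since chromosomes 14 and 1 held 519 and 323 of the 1562 lower windows.

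The few changed windows at clusters rested on modest read numbers, given here from the authors' deposited table as reads in KO and WT. Reads of single windows are not scaled to library size. The implied sizes in KO and WT were 11413874 and 13451714 reads for the IP, and 23924232 and 16623305 for the input. Equal input reads thus mean a lower scaled input in KO. At chr1:59539146-59541230, whose 3 peaks had folds of 6.81, 6.81 and 4.87, an overlapping window held 37 and 15 IP reads and 16 and 24 input reads. At chr11:120207797-120210932 an overlapping window held 16 and 2 IP reads and 22 and 25 input reads. Both were higher in KO in the IP and not in the input. The window with the smallest p among those within 1000 bp of a cluster and higher in KO lay 822 bp from chr4:43574322-43576168, with 70 and 24 IP reads and with 60 and 57 input reads. Its change was listed in the authors' deposited table with an adjusted p of 0.0897 and a size of 1.79 on the log2 scale. It was the only 1 of these 6 with an adjusted p under 0.1 there.

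The 3 windows lower in KO within 1000 bp of a cluster overlapped 2 clusters. At chr17:24856390-24858411, whose middle peak had a fold of 16.4, the window held 2 and 36 IP reads and 15 and 14 input reads, with an adjusted p of 0.389 in the authors' deposited table. At chr1:77510315-77512049, 2 adjoining windows held 3 and 25, and 0 and 16, IP reads. Their input reads were 17 and 13, and 29 and 23. Scaled to library size, the 3 windows together held 0.0765 times as many IP reads in KO as in WT (0.0242 to 0.186) and 0.848 times as many input reads (0.574 to 1.26).

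A somewhat larger set of windows lay farther out. Among the regions of highest fold, chr8:123191027-123193464 had a window higher in KO at 2037 bp, with 34 and 10 IP reads and 19 and 17 input reads, and chr6:115756801-115758814 had one at 2801 bp, with 103 and 72 IP reads and 46 and 28 input reads. Near chr11:6315399-6317219, a region picked after its values were seen, a window at 1899 bp held 78 and 0 IP reads, with an adjusted p of 1.50e-18 in the authors' deposited table. Its input reads were 12 and 0, so the WT libraries had no reads there in the IP or in the input. The part of a genomic difference between the cells at that place was not tested.

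Summed over windows and scaled to library size, the 6 windows higher in KO within 1000 bp of clusters held 2.82 times as many IP reads in KO as in WT (2.27 to 3.53) and 0.765 times as many input reads (0.621 to 0.943). For the 41 such windows within 10000 bp the ratios were 2.82 (2.59 to 3.08) and 0.951 (0.862 to 1.05), and for all windows higher in KO they were 2.65 and 1.00. The windows were listed for an IP difference, so the IP ratio is a description. For the 17 windows lower in KO within 10000 bp the IP ratio was 0.337 (0.288 to 0.393) and the input ratio 0.673 (0.561 to 0.806). The input ratio in all lower windows was 0.547 (0.539 to 0.556), so the input differed between genotypes in the same direction as the IP there, and its part in the lower windows was not tested.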

How the data were processed

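The submitters' processing notes name BWA 0.5.9, build mm9 and MACS2 2.0.10 for the ChIP-seq libraries. Per the file headers, each library was called separately with a q cutoff of 0.01. Whole-cell extract was the control for Sirt6, and the acetylation lists had none. The deposited lists give each peak's pileup signal, −log10 p and q, and fold over local background. The CMS-IP table deposited by the authors gives read counts and RPKM per library, with edgeR's log2 fold change and p-value per window and no replicate, from an aligner not given in the sources used here. Its p-values all lie under 0.001.

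From these files, Sirt6 peaks were joined, overlaps and distances computed, and Wilson (shares), Newcombe (differences), exact Poisson (densities) and exact binomial (read ratios) intervals taken at 95%. For a share or density of 0 the limit that 3 counts give is printed beside that of the interval. Library sizes for the read ratios were implied by the deposited counts and RPKM. With 1 library per group no test was made. The members, lists and measures were chosen with earlier results of these data known. Named regions were the 10 with the most peaks, the longest span or the highest fold, those at CMS-IP windows, the fullest 1 Mb stretches and those nearest a threshold, and the text names some. Chosen after seeing the data were the summit distance as a result with its own alternatives, the distance classes, the comparison with high isolated peaks, leaving out chromosomes 6, 10 and 11, and the values for chromosome 8. The joining step and the Newcombe intervals were tested on simulated data. Alternatives changed the joining gap, the q limit, the acetylation margin, the least number of peaks, the chromosomes, the distance and the limit on the windows. Versions were matplotlib 3.10.9, scipy 1.17.1, pandas 2.3.3, numpy 2.4.6 and Python 3.11.15.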

Additional observations from a re-analysis of the deposited data

How the results depend on the processing

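No paired analysis was possible because each group has 1 library and the labels give no shared replicate numbers. The number of clusters was 51 with Sirt6 and acetylation peaks at a −log10 q of at least 10, and 146 for 4 or more peaks. It was 480 to 636 under the other alternatives. The share within 1000 bp of a window higher in KO was 0% at the strict q limit, 0.338% by overlap, 5.25% within 10000 bp, 0% from the summit, 0.169% for windows with an adjusted p under 0.1 and 0.417% without chromosomes 6, 10 and 11. It was 2.05% for 4 or more peaks (3 of 146 regions) and 1.57% at a gap of 2000 bp. The share for lower windows was 0% at the strict q limit, for 4 or more peaks and at an adjusted p under 0.1, and 2.20% within 10000 bp.

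The difference from isolated peaks for higher windows was 0.171 points for 4 or more peaks and 0.0859 at an adjusted p under 0.1, both with intervals that include 0. It was −1.73 from the summit and −1.29 (−1.79 to −0.151) without chromosomes 6, 10 and 11, whose intervals exclude 0. For lower windows it was −0.0547 at a gap of 500 bp, −0.166 at the strict q limit, −0.25 for 4 or more peaks and −0.0167 at an adjusted p under 0.1, and every interval includes 0. The summit difference had an interval that includes 0 at the strict q limit (−0.934), for 4 or more peaks (−1.73), within 5000 bp (−0.857) and within 10000 bp (−0.391). With fewer regions, as in the strict q limit and 4 or more peaks, intervals widen. The cause of the other changes was not tested. The depth of the WT Sirt6 library limits which weak peaks were called, and so which regions count as clusters.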

Other observations

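Further close neighbours among the clusters, named after their values were seen, were on chromosomes 4, 6, 8 and 11. On chromosome 6, chr6:117856759-117858839 had a highest fold of 17.8, while chr6:117866406-117868404 beside it had 6.11. On chromosome 11, chr11:68872453-68874446 reached 15.6 and chr11:68883527-68884600 reached 7.83. On chromosome 4, chr4:109338625-109339725 reached 7.57 and chr4:109348684-109350186 reached 12.9. On chromosome 8, chr8:87493058-87494286 reached 7.02 and chr8:87500111-87504665 reached 12.3. The regions of each of these neighbouring sets lay within 10000 bp of each other.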
